A study of Mus musculus with 4 samples.

Results

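Arhgap26, Pakap and Ppp1r9a are long protein-coding genes whose bodies and surroundings held many Sox2 peaks in mouse embryonic stem cells and touched none of the stretches where peaks were densest. Their peaks were taken from 4 ChIP-exo peak lists as every peak with its centre in the gene body or within 50 kb of it. The 3 genes were chosen by these peak numbers, which are therefore given as a description. In all 105 of the 29255 peaks of the lists were theirs, 45 at Arhgap26, 36 at Pakap and 24 at Ppp1r9a. ChIP-exo trims precipitated DNA with an exonuclease up to the crosslinked protein, which places binding finely. All 4 libraries came from D3 cells, a mouse embryonic stem cell line. The first was endogenous Sox2, isolated with an antibody. The other libraries were fusions of Sox2 to HaloTag, a protein tag caught on HaloLink resin: Halo-Sox2, Halo-Sox2M with changes labelled M47G, F50 and M51G, and Halo-Sox2D, which has residues 1 to 120 of Sox2. No clone, promoter or expression level of the fusions is given in the sources used here, nor is it said whether cells with a fusion still held endogenous Sox2. Antibody and resin differ between endogenous Sox2 and all the fusions, so the way of isolation and the protein cannot be told apart in that comparison.

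Sox2 belongs to the HMG-box transcription factors. It binds DNA with Oct4 and holds embryonic stem cells in the pluripotent state, often from elements far from promoters, in introns and between genes. Arhgap26 (GRAF1) encodes a GTPase-activating protein for small GTPases that binds focal adhesion kinase and shapes membranes and the actin skeleton. Pakap is the joined locus of Palm2, a membrane-bound paralemmin, and Akap2, an anchor of protein kinase A. Ppp1r9a encodes neurabin, which binds actin and brings protein phosphatase 1 to it, above all in dendritic spines, and lies beside the imprinted genes Sgce and Peg10.

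The longest list was that of Halo-Sox2D with 13833 peaks, followed by endogenous Sox2 (7153), Halo-Sox2 (6558) and Halo-Sox2M (1711), and the median width was 11 bp in each. They give positions without scores or read numbers, so depth is unknown and a longer list can reflect depth or threshold. Each group was 1 library, so no difference between libraries has a replicate check, no test was run and no p-value is given. Intervals are at 95% and cover the counting error alone, although peaks beside each other are not independent. As a check of the label, Sox2, Pou5f1 and Nanog had 4, 10 and 4 endogenous Sox2 peaks in windows of the same kind. In the same order Halo-Sox2 had 3, 3 and 3, Halo-Sox2M 1, 0 and 0, and Halo-Sox2D 3, 7 and 5. The check therefore does not single out the endogenous Sox2 library.

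Endogenous Sox2 gave 12 peaks at Arhgap26, 16 at Pakap and 14 at Ppp1r9a. The Halo-Sox2 list had 6 at Arhgap26, 10 at Pakap and 0 at Ppp1r9a. For Halo-Sox2M there were 2, 2 and 0 peaks, and for Halo-Sox2D 25, 8 and 10. Arhgap26 thus had its highest number in Halo-Sox2D and Pakap in endogenous Sox2, while Ppp1r9a had peaks in endogenous Sox2 and Halo-Sox2D alone. A peak in such a window was common among all 21887 protein-coding genes for endogenous Sox2 (27.4%), Halo-Sox2 (32.3%) and Halo-Sox2D (57.7%) and uncommon for Halo-Sox2M (6.37%). Among the 679 protein-coding genes at least as long as Ppp1r9a the shares were 46.4, 51.1, 63.5 and 10.9%. Peaks of all 4 libraries, as at Arhgap26 and Pakap, were found at 1.77% of all genes and 4.86% of the long ones.

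Set against list length, the 3 genes together took 5.87 of every 1000 endogenous Sox2 peaks (4.35 to 7.93) and 2.44 of every 1000 Halo-Sox2 peaks (1.50 to 3.96). The Halo-Sox2M share was 2.34 per 1000 (0.909 to 5.996) and that of Halo-Sox2D 3.11 (2.31 to 4.18). These totals come from genes chosen on the same peaks. Of the 42 endogenous Sox2 peaks, 32 had another of the same library within 500 bp. The intervals of the totals therefore do not set the libraries apart. For Pakap the share was 2.24 per 1000 in endogenous Sox2, 1.52 in Halo-Sox2, 1.17 in Halo-Sox2M and 0.578 in Halo-Sox2D. The counting intervals were 1.38 to 3.63 for endogenous Sox2 and 0.293 to 1.14 for Halo-Sox2D. Pakap was chosen on these peaks, and 13 of its 16 endogenous Sox2 peaks had another of the same library within 500 bp, so the intervals do not set the libraries apart. At Arhgap26 the shares were 1.81 for Halo-Sox2D, 1.68 for endogenous Sox2, 1.17 for Halo-Sox2M and 0.915 for Halo-Sox2, with overlapping intervals throughout. Ppp1r9a had 1.96 per 1000 endogenous Sox2 peaks (1.17 to 3.28) and 0.723 per 1000 Halo-Sox2D peaks (0.393 to 1.33), which also overlapped. Its share was 0 in Halo-Sox2 (0 to 0.585), an interval below that of endogenous Sox2, and 0 in Halo-Sox2M (0 to 2.24). Ppp1r9a too was chosen on its peaks, so these intervals do not set the libraries apart.

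**Figure D1:**
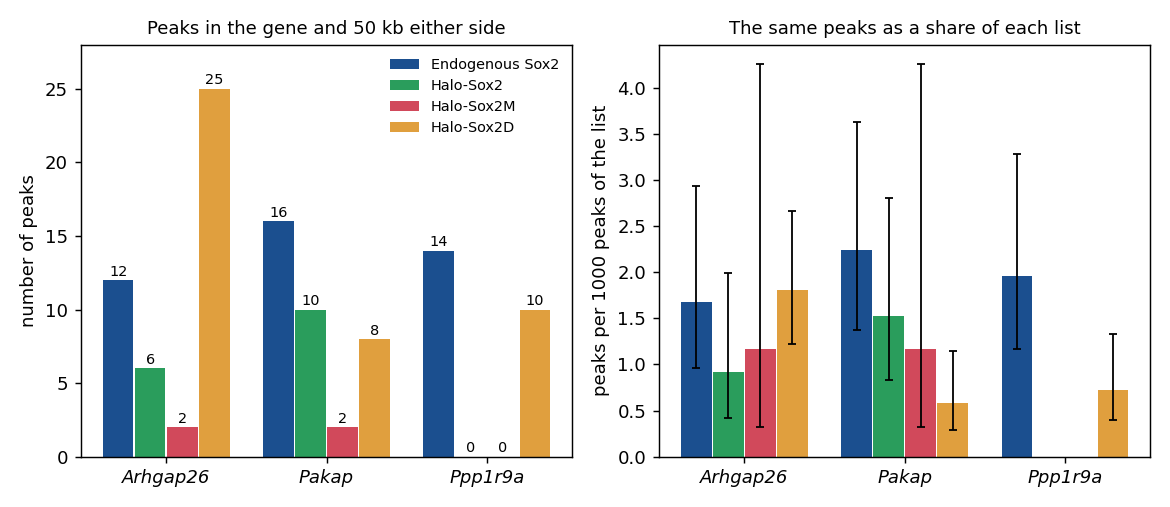
The left bars give the number of peaks at each gene (body and 50 kb on either side) in each of the 4 libraries, and the right bars the same peaks per 1000 peaks of the library's list, with 95% Wilson intervals for counting error as lines. Arhgap26 reached 25 Halo-Sox2D peaks and Ppp1r9a had 0 Halo-Sox2 peaks. Bars at 0 carry no interval.

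Per length and outside dense bins, which are 100-kb bins with 15 or more peaks of a library, Ppp1r9a was the densest of the long genes in the endogenous Sox2 list. Its window of 363 kb held 3.86 endogenous Sox2 peaks per 100 kb (2.11 to 6.47), that of Pakap (563 kb) 2.84 (1.63 to 4.62) and that of Arhgap26 (875 kb) 1.37 (0.709 to 2.40). The pooled density of the 679 long genes outside dense bins was 0.195 per 100 kb, and the median gene had 0. In Halo-Sox2 the densities were 1.78 at Pakap and 0.686 at Arhgap26, against a pooled 0.170. In Halo-Sox2D they were 2.86 at Arhgap26, 2.76 at Ppp1r9a and 1.42 at Pakap, against 0.321. Halo-Sox2M stayed at 0.356 for Pakap and 0.229 for Arhgap26, against 0.0230. Outside dense bins no long gene had more Halo-Sox2D peaks than Arhgap26, and none more endogenous Sox2 peaks than Pakap, with 1 level with it. Of the 25 Halo-Sox2D peaks of Arhgap26, 6 lay in the neighbouring gene Spry4 or within 1 kb of it. Btbd9 had 21, so the lead of Arhgap26 depends on these peaks. At other long genes peaks shared with neighbours were kept.

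By peaks of all libraries outside dense bins, Arhgap26 ranked 2 among the 679 long genes, level with Btbd9 at 45 peaks, Pakap ranked 5 and Ppp1r9a ranked 11. Of the 45 peaks of Arhgap26, 12 lay in Spry4 or within 1 kb of it, and its rank above Pakap, with 36 peaks, depends on them. Zfp993 (47 peaks) and Zfp978 (42) were the other genes among the first 5. These and Btbd9 each had a higher density than Arhgap26 and Pakap, from 8.12 per 100 kb at Zfp993 to 11.4 at Zfp978. None of the 105 peaks of Arhgap26, Pakap and Ppp1r9a lay in a dense bin. No repeat annotation was used here, so single peaks in repeats cannot be told from others.

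**Figure D2:**
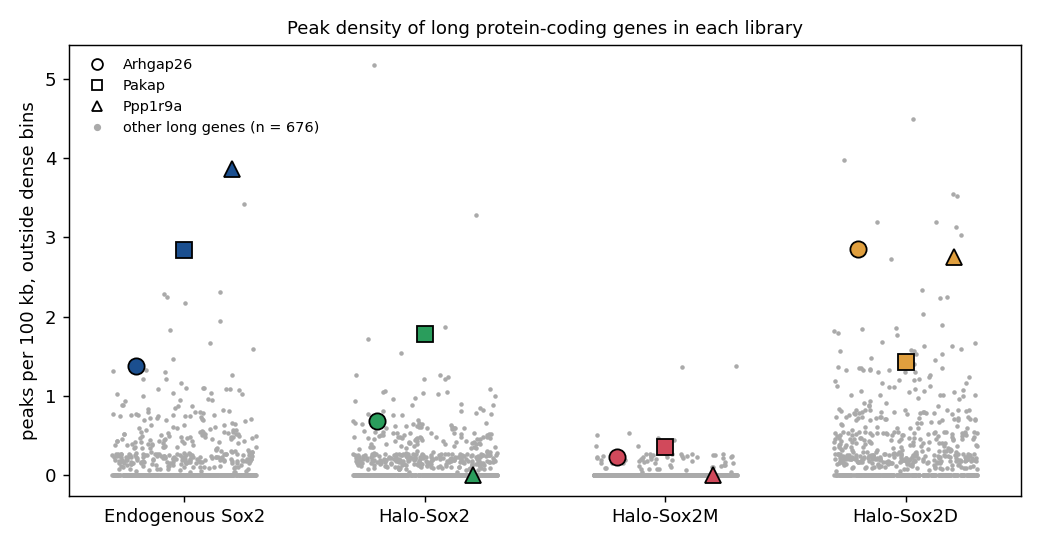
Each grey point is a long protein-coding gene, placed by library on the horizontal axis (spread sideways at random) and by peaks per 100 kb outside dense bins on the vertical axis. Larger symbols are Arhgap26, Pakap and Ppp1r9a. Ppp1r9a lies highest in endogenous Sox2 at 3.86 and at 0 in Halo-Sox2 and Halo-Sox2M.

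Arhgap26 (gene ID 71302, mm10 chromosome 18, 38601617 to 39376285) is the longest of the 3 genes at 775 kb, and its peaks lay in its lower part. Of its 45 peaks, 30 were in the body, 15 below the lower end and 0 beyond the upper end. The last peak was at 536.6 kb from the lower end, and the remaining 288 kb of body and flank held none in any library. When the body was divided into 10 equal parts, parts 1 to 7 held 5, 3, 2, 8, 5, 2 and 5 peaks and the others 0. Nr3c1, the glucocorticoid receptor gene that reaches into the upper flank, had 0 of the 45 peaks in its body. Most of Nr3c1 lies beyond the flank, and there its body held 1 Halo-Sox2D peak.

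Other genes share this ground. The upper end of Spry4, an antagonist of FGF signalling, lies 269 bp below the lower end of Arhgap26. Positions here are by coordinate, without regard to strand. In Spry4 or within 1 kb of it lay 12 of the 45 peaks, 3 of endogenous Sox2, 2 of Halo-Sox2, 1 of Halo-Sox2M and 6 of Halo-Sox2D. Fgf1, the gene of an FGF ligand, and the predicted gene Gm5820 lie over the middle of Arhgap26, and 13 peaks fell inside them. This left 20 peaks at Arhgap26 alone or in its outer flank, 13 of them from Halo-Sox2D, 5 from endogenous Sox2, 2 from Halo-Sox2 and 0 from Halo-Sox2M. Those in the outer flank, of Halo-Sox2D and endogenous Sox2, lay 16.8 to 30.7 kb below Arhgap26, on the far side of Spry4 and nearer to it. The small gene Gm19774, also within Arhgap26, held none. A peak list cannot tell which of the overlapping genes a peak belongs to.

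The place with most peaks spanned the gap between Spry4 and Arhgap26 and reached into both genes. When peaks of all libraries were joined wherever centres lay within 500 bp, 8 peaks there formed 1 place of 1174 bp with all 4 libraries. Outside dense bins 23 of the 19364 places in the genome held all 4. The Halo-Sox2M peak (38601094 to 38601106) lay at the edge of this place, 0.517 kb below the lower end of Arhgap26 and inside Spry4. The other peaks closest to the lower end were endogenous Sox2 at 0.196 kb below, Halo-Sox2D at 0.229, 0.140 and 0.115 kb below, and Halo-Sox2 at 0.132 kb below. Inside Arhgap26 an endogenous Sox2 peak followed at 0.172 kb and a Halo-Sox2D peak at 0.648 kb. None of these 8 peaks overlapped a peak of another library.

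A tighter cluster lay 302.3 to 302.4 kb into Arhgap26, within Fgf1. It held 6 peaks within 120 bp: 1 of Halo-Sox2 (38903934 to 38903935), 3 of Halo-Sox2D (the first 38903963 to 38903980) and 2 of endogenous Sox2 (38904010 to 38904023 and 38904048 to 38904053). The second endogenous Sox2 peak overlapped a Halo-Sox2D peak at 38904046 to 38904049 by 2 bp. Further into Arhgap26, endogenous Sox2 peaks stood in close pairs at 358.3 kb and at 523.2 to 523.3 kb, with no other library within 500 bp. The second Halo-Sox2M peak, at 360.0 kb, was alone. Of the 30 places at Arhgap26, 27 held 1 library, and 25 were a single peak. Halo-Sox2D, which has the longest list, made 17 of these single-peak places, Halo-Sox2 4, endogenous Sox2 3 and Halo-Sox2M 1. Most places in the genome were of this kind too: outside dense bins 16906 of 19364 held 1 library and 15576 were a single peak.

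**Figure D3:**
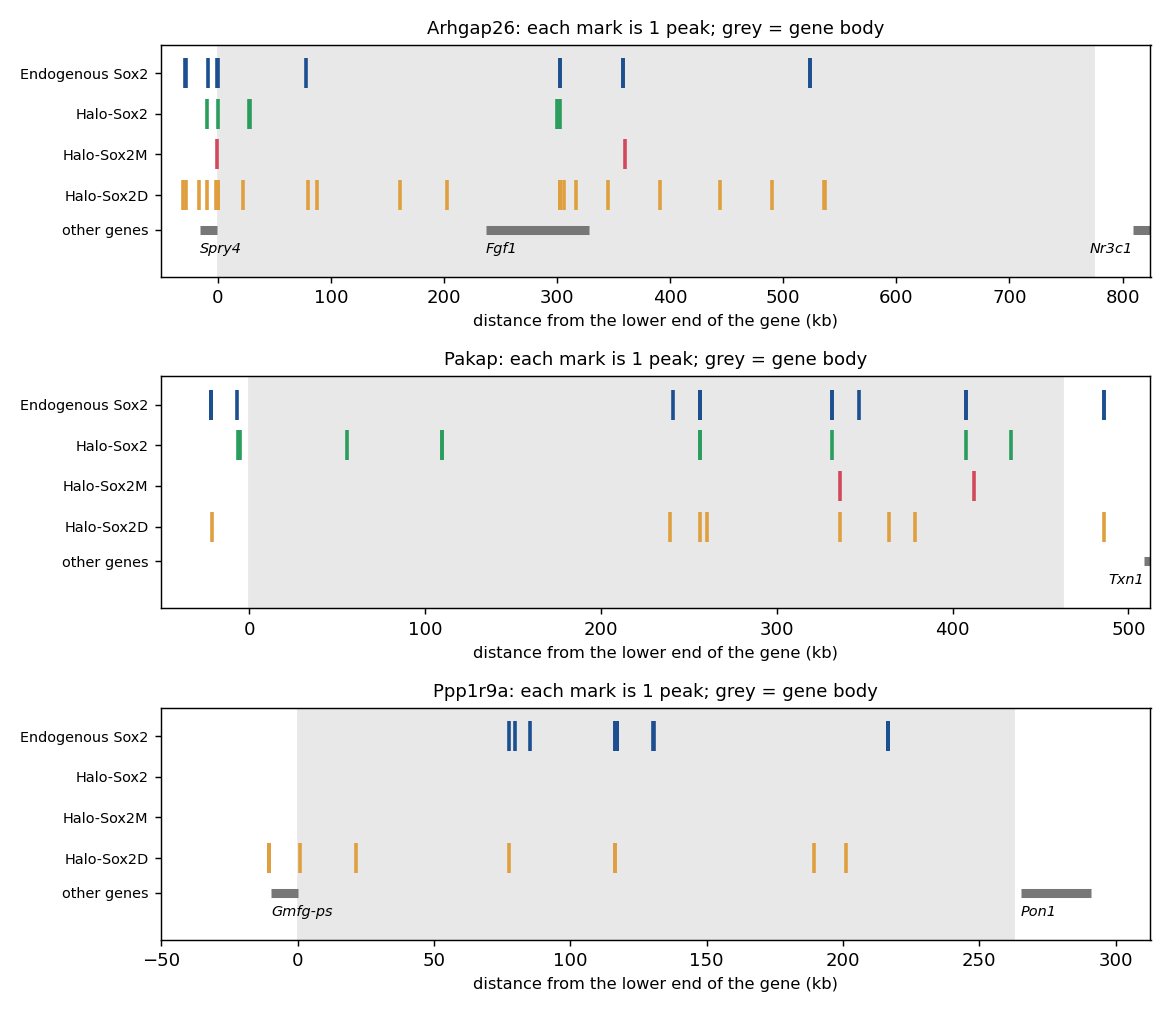
Every peak at the 3 genes is a vertical mark, by distance in kb from the lower end of the gene (horizontal) and by library (rows); the gene body is grey and bars below show other genes. Arhgap26 is empty from 536.6 kb on, Pakap between 109.5 and 239.2 kb, and the Halo-Sox2 and Halo-Sox2M rows of Ppp1r9a are empty.

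Pakap (gene ID 677884, chromosome 4, 57434475 to 57896984, 463 kb) had its peaks in the upper part of the body and in both flanks, with 26 in the body, 7 below it and 3 beyond it. The RefSeq promoter table puts 5 transcription starts of Pakap on the plus strand, so that the lower end is the start of its longest form. From 109.5 to 239.2 kb, a stretch of 130 kb with listed starts at 133.4 and 133.8 kb, there was no peak. Of 10 equal parts of the body, part 6 held 10 peaks, part 8 held 7 and part 9 held 5. Parts 1 to 3 held 3 peaks, all of Halo-Sox2.

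The main cluster of Pakap lay 256.5 to 256.6 kb from its start. Within 111 bp it held 4 endogenous Sox2 peaks (57691007 to 57691011, 57691035 to 57691052, 57691059 to 57691077 and 57691098 to 57691112), 2 Halo-Sox2 peaks (57691097 and 57691109 to 57691117) and 1 Halo-Sox2D peak (57691102 to 57691117). At its upper edge all 3 libraries met: the last endogenous Sox2 peak overlapped the Halo-Sox2D peak by 11 bp and the Halo-Sox2 peak by 4 bp, and the latter overlapped each other by 9 bp. These and the pair in Arhgap26 were the 4 overlaps between libraries at the 3 genes.

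Pakap also had places of endogenous Sox2 and Halo-Sox2 without Halo-Sox2D. At 331.5 kb, 2 endogenous Sox2 peaks (57765971 to 57765978 and 57766012 to 57766021) stood beside a Halo-Sox2 peak (57766029 to 57766043). At 407.6 kb there were again 2 endogenous Sox2 peaks and 1 Halo-Sox2 peak (57842123 to 57842129), within 71 bp. In the lower flank an endogenous Sox2 peak at 6.88 kb below the start had a Halo-Sox2 peak 304 bp away. Endogenous Sox2 and Halo-Sox2 thus shared 4 places at Pakap, and 9 of the 16 endogenous Sox2 peaks had a Halo-Sox2 centre within 500 bp (56.3%, 33.2 to 76.9%). Over all endogenous Sox2 peaks outside dense bins this share was 29.8% (28.7 to 30.9%), and nothing is read from the difference because Pakap was chosen for its many peaks.

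The outer clusters of Pakap held endogenous Sox2 with Halo-Sox2D and no Halo-Sox2. One lay 21.3 to 21.9 kb below the start, with 3 endogenous Sox2 peaks and 1 Halo-Sox2D peak within 598 bp. Another lay beyond the upper end at 485.9 to 486.2 kb, with 2 endogenous Sox2 peaks and 1 Halo-Sox2D peak, above D630039A03Rik and below Txn1, the thioredoxin gene. Neither of these neighbours had a peak in its body. A Halo-Sox2M peak (57770383 to 57770387) was 55 bp from a Halo-Sox2D peak at 335.9 kb, and the second Halo-Sox2M peak (57846843 to 57846849) stood alone.

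**Figure D4:**
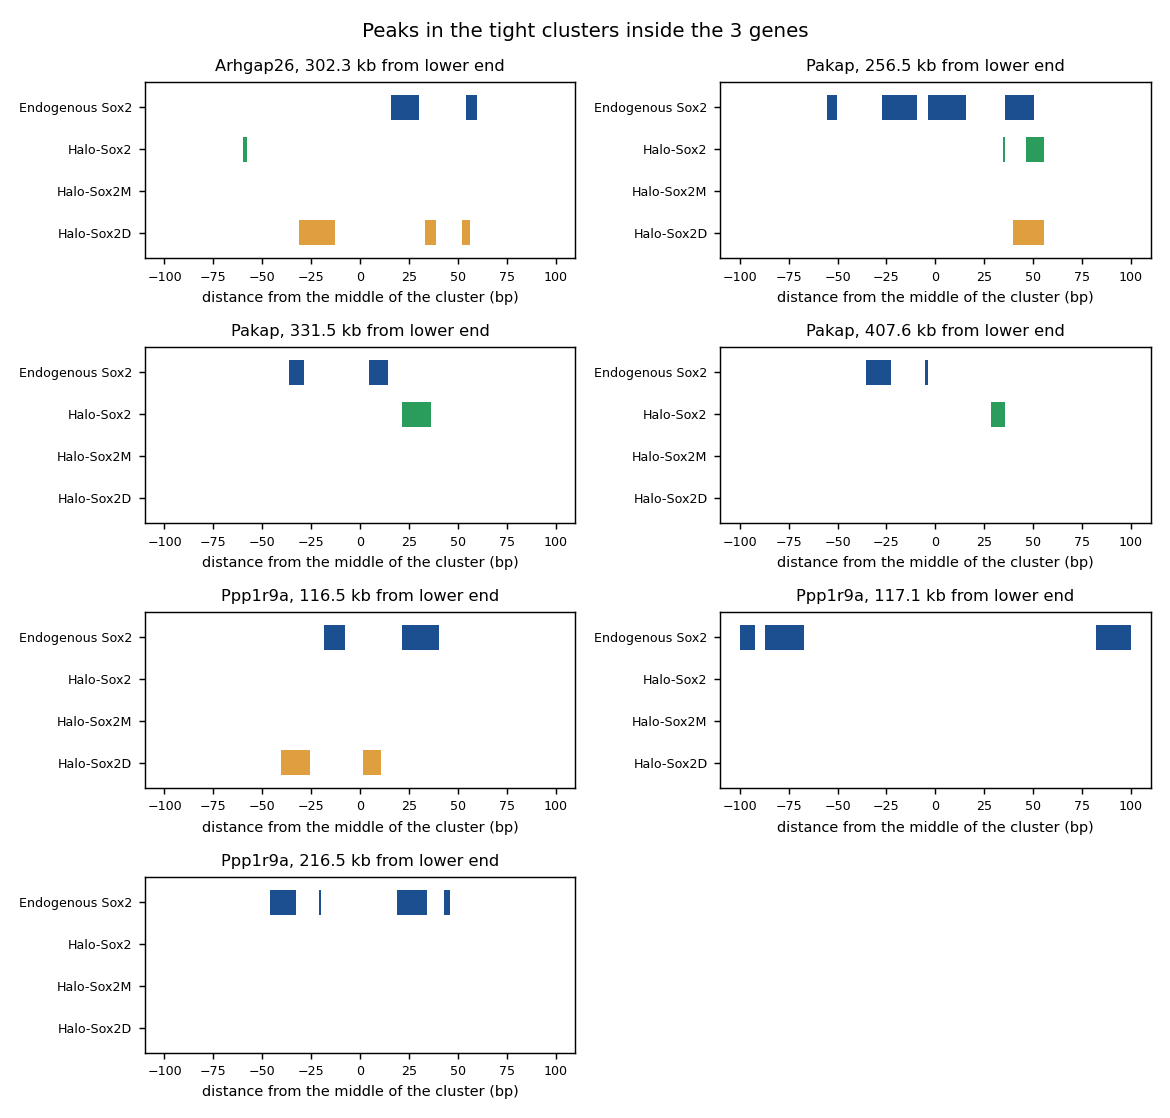
Clusters of 3 or more peaks inside the gene bodies and at most 200 bp wide, 7 in all, drawn to scale by distance in bp from the middle of the cluster, with a bar for each peak and a row for each library. In Pakap at 256.5 kb peaks of 3 libraries meet near 50 bp on the right, and the Ppp1r9a clusters hold endogenous Sox2 with or without Halo-Sox2D.

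The lone Halo-Sox2M peak of Pakap lay 1.60 kb downstream of the listed start at 57845248, the start nearest to any peak at this gene. The promoter window of that start (chr4:57844998-57845297, plus strand, RefSeq, GRCm38.p6, whose main chromosomes share the coordinates of mm10) is printed here because it is the Pakap promoter closest to a peak. Capitals mark the bases from the start site onward.
Pakap start at 57845248: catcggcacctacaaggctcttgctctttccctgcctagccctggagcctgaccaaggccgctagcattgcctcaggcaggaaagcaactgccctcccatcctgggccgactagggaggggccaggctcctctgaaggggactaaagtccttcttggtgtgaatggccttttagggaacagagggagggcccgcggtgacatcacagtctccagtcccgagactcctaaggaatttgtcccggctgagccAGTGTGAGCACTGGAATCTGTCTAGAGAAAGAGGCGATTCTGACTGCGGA
No peak of any library lay in this window or in the other 4 promoter windows of Pakap, and the start of the longest form had its nearest peak, of Halo-Sox2, 5.20 kb upstream.

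Ppp1r9a (gene ID 243725, chromosome 6, 4902872 to 5165661, 263 kb) had 21 of its 24 peaks in the body. All 14 endogenous Sox2 peaks lay between 77.4 and 216.6 kb from the lower end, where RefSeq lists 2 starts on the plus strand. Part 5 of 10 held 9 peaks, 7 of endogenous Sox2 and 2 of Halo-Sox2D. Halo-Sox2D alone had peaks in the first 77 kb and in the lower flank. No peak lay in part 10 or in the upper flank, where Pon1, a serum paraoxonase gene, begins.

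Endogenous Sox2 peaks of Ppp1r9a stood in groups. Near 116.5 kb, 2 of them (5019392 to 5019402 and 5019432 to 5019450) alternated with 2 Halo-Sox2D peaks (5019370 to 5019384 and 5019412 to 5019420) within 81 bp, without overlap. At 117.1 to 117.3 kb a group of 3 endogenous Sox2 peaks followed, then a pair at 130.4 to 130.5 kb. At 216.5 to 216.6 kb, 4 endogenous Sox2 peaks (5119366 to 5119378, 5119391, 5119431 to 5119445 and 5119455 to 5119457) fell within 92 bp with no other library. At 77.4 kb an endogenous Sox2 peak of 1 bp (4980293) lay 12 bp from the centre of a Halo-Sox2D peak (4980297 to 4980313). In all 3 of the 14 endogenous Sox2 peaks had a Halo-Sox2D centre within 500 bp (21.4%, 7.57 to 47.6%), against 31.9% over the list outside dense bins.

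Ppp1r9a had endogenous Sox2 peaks and no Halo-Sox2 peak, as did 11.9% of all protein-coding genes and 13.5% of the long ones. Few genes had as many endogenous Sox2 peaks as Ppp1r9a. Of the 43 protein-coding genes with 10 or more endogenous Sox2 peaks outside dense bins, a limit set after the values were seen, 5 had no Halo-Sox2 peak (11.6%). The other 4, Fam177b, Brox, Aida and Mia3, had 10 peaks each and adjoin each other on chromosome 1, so that their windows share peaks. More of the 43 genes lie side by side in this way, as around Pou5f1 on chromosome 17. The 11.6% is therefore not a share of independent genes.

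Halo-Sox2D was the only library with a peak near the start of Ppp1r9a. The peak (4903597 to 4903608) lay 0.292 kb downstream of the listed start at 4903311 and 0.628 kb downstream of the one at 4902975. A further 3 Halo-Sox2D peaks lay together 10.4 to 10.6 kb below the gene, at the far end of Gmfg-ps, whose listed start on the minus strand lies beside that of Ppp1r9a. The promoter window beside the Halo-Sox2D peak (chr6:4903061-4903360, plus strand, RefSeq, GRCm38.p6) ends short of it and is shown with its bases from the start site onward in capitals.
Ppp1r9a start at 4903311: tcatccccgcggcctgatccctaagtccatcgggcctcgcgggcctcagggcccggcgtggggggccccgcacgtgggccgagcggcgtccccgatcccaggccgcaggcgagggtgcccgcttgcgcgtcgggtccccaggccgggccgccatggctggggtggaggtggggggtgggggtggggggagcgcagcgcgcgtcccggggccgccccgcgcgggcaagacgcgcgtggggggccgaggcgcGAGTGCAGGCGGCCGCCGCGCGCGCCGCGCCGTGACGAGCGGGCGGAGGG
Its GC content was 82.0%, and 99.6% of the 32817 promoter windows of the table had as much or less, with a median of 52.7%. It held 48 CpG, against 9 in the Pakap window, whose GC content was 58.3%. Neither window held ACAAAG or ACAATG, the core letters of Sox motifs, or the octamer ATGCAAAT, on either strand, and nor did the other 5 windows listed for Pakap and Ppp1r9a. Of all promoter windows 18.7, 12.6 and 1.74% held these letters. These windows contained none of the peaks, and the sequence under the peaks was not analysed here.

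Across the 3 genes the 105 peaks formed 60 places, of which 48 held 1 library, 9 held 2, 2 held 3 and 1 held all 4. Pakap shared most, with 7 of 18 places in 2 or more libraries, against 3 of 30 at Arhgap26 and 2 of 12 at Ppp1r9a. Over the genome outside dense bins 12.7% of places held 2 or more libraries (2458 of 19364), and 12 of 60 did here. Endogenous Sox2 and Halo-Sox2D met at 8 places (3 at Arhgap26, 3 at Pakap and 2 at Ppp1r9a) and endogenous Sox2 and Halo-Sox2 at 6 (2, 4 and 0). Halo-Sox2 and Halo-Sox2D met at 3, and Halo-Sox2M met Halo-Sox2 at 1, endogenous Sox2 at 1 and Halo-Sox2D at 2. Of the 43 Halo-Sox2D peaks at the genes, 32.6% (20.5 to 47.5%) had an endogenous Sox2 centre within 500 bp, against 12.4% (11.8 to 12.9%) of its list outside dense bins. Of the 16 Halo-Sox2 peaks 43.8% (23.1 to 66.8%) did, against 25.2% (24.1 to 26.3%). Because genes with many peaks were chosen, a higher share of neighbours is partly built in, and nothing is read from these differences.

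Endogenous Sox2 peaks at these genes were mostly in company of their own kind. Of the 42 peaks, 32 had another endogenous Sox2 peak within 500 bp (76.2%, 61.5 to 86.5%), with 8 of 12 at Arhgap26, 13 of 16 at Pakap and 11 of 14 at Ppp1r9a. For Halo-Sox2 the number was 4 of 16 (25.0%), all at Pakap, for Halo-Sox2D 11 of 43 (25.6%) and for Halo-Sox2M 0 of 4. Over the lists outside dense bins these shares were 47.7, 20.9, 19.0 and 16.7%, so that endogenous Sox2 was highest there too. Genes with many peaks were chosen, so a higher share of neighbours of the same library is partly built in. Nothing is read from the differences between the 3 genes and the lists. The median spacing of endogenous Sox2 peaks within such groups was 37 bp at the 3 genes and 36 bp over the list.

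For other genes of the same families, numbers are given in the order endogenous Sox2, Halo-Sox2, then Halo-Sox2M, then Halo-Sox2D. Over all protein-coding genes the median was 0, 0, 0 and 1 peaks, and 27.4, 32.3, 6.37 and 57.7% had a peak. Most of these genes are shorter than Arhgap26, Pakap and Ppp1r9a, so peaks of all libraries per 100 kb of window are given beside the raw numbers for those with most peaks. Among genes around Arhgap26 in its pathway, the small GTPase gene Rhoa led with 1, 3, 0 and 6 peaks (7.59 per 100 kb, against 5.14 at Arhgap26), followed by Ptk2, which encodes focal adhesion kinase (3, 1, 0 and 3), and by Arhgap35 and Rac1 with 3 in all. Close relatives of Arhgap26 had 2 peaks (Arhgap42) and 1 (Arhgap10).

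Among 18 genes of A-kinase anchors, protein kinase A and paralemmins, 7, 6, 2 and 16 had a peak (38.9, 33.3, 11.1 and 88.9%, against 27.4, 32.3, 6.37 and 57.7% of all protein-coding genes), with medians of 0, 0, 0 and 1. The anchor gene Akap12 had 5, 8, 0 and 8 peaks, and its 10.9 per 100 kb were more than the 6.40 of Pakap. Akap1 had 0, 2, 1 and 5, Akap8 had 4, 3, 0 and 1, and Palm3, a paralemmin gene, had 6 peaks, all of Halo-Sox2D. The window of Palm3 overlaps that of a protein kinase A gene of the list with the same numbers, so peaks can be counted for both. Of 15 genes around protein phosphatase 1, 6, 9, 0 and 13 had a peak (40.0, 60.0, 0 and 86.7%, against the same shares of all genes), with medians of 0, 1, 0 and 2. The myosin phosphatase subunit gene Ppp1r12a had 6, 7, 0 and 4, the catalytic subunit genes Ppp1cc and Ppp1cb had 6, 5, 0 and 2 and 1, 2, 0 and 3, and Ppp1r10 had 2, 2, 0 and 6. Per 100 kb this was 10.8 at Ppp1cc, 8.64 at Ppp1r10 and 7.80 at Ppp1r12a, each above the 6.62 of Ppp1r9a, and 4.45 at Ppp1cb. Ppp1r9b, the closest relative of Ppp1r9a, had 0, 1, 0 and 3.

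In the imprinted region around Ppp1r9a, 6 of 14 genes had an endogenous Sox2 peak, 6 a Halo-Sox2 peak, 0 a Halo-Sox2M peak and 7 a Halo-Sox2D peak. These were 42.9, 42.9, 0 and 50%, against 27.4, 32.3, 6.37 and 57.7% of all protein-coding genes, and windows of neighbours here share peaks. Asb4 had 2, 2, 0 and 2 peaks, and the neighbours Sgce and Peg10 had 2, 1, 0 and 2 each, in overlapping windows. Pdk4 had 1, 1, 0 and 3. Halo-Sox2 peaks were therefore called elsewhere in this region, though not at Ppp1r9a. The windows of Pon1 and Ppp1r9a overlap, and the 4 endogenous Sox2 peaks counted for Pon1 are the group at 216.5 kb of Ppp1r9a.

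Likeness of pattern was measured as the distance between the genes' peak numbers in the 4 libraries, each divided by list length and scaled to a sum of 1 per gene, among genes with at least as many peaks in all as 50% of the gene in question. Arhgap26 was most like Tcf7l1 (6, 5, 1 and 12 peaks in the same order of libraries, distance 0.0999), Tsc22d1 (4, 4, 1 and 16, 0.139) and Etl4 (11, 9, 2 and 12, 0.189), of 48 genes compared. Pakap was most like Spry2 (17, 11, 2 and 9, distance 0.0169), Usp7 (7, 5, 1 and 5, 0.0520) and Etl4 (0.121), of 168. Ppp1r9a was most like Agps (8, 0, 0 and 4, distance 0.0909), Gli2 (11, 1, 0 and 6, 0.0974) and 2700049A03Rik (9, 0, 0 and 4, 0.117), of 612. With 4 libraries and few peaks a gene, this is a description of the lists.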

How the data were processed

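The authors deposited 1 peak list per library, with chromosome, start and end as coordinates and no other value. The submitters' processing notes name Bowtie2 and mm10, and the sources used here give no peak caller, threshold or read filter. Gene bodies and promoter windows (250 bases before to 50 after a start) came from RefSeq GRCm38.p6, where Pakap and Ppp1r9a matched promoters. Peaks were counted by centre in Python 3.11.15 with pandas 2.3.3, numpy 2.4.6 and scipy 1.17.1 (Wilson intervals for shares, exact Poisson intervals for densities), with code tested on simulated data. Dense bins are 11 bins of 100 kb with 15 or more peaks of a library, left out together with mitochondrial and unplaced sequence where stated. A cluster is a place with 3 or more peaks. No filter on low values was used.

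The 3 genes, the lists and the naming rule were chosen with earlier results of these data known. Named were these genes, protein-coding genes in their windows, up to 4 genes of each list with most peaks, the 3 genes most alike to each, the 5 long genes with most peaks, and Sox2, Pou5f1 and Nanog. Relatives of the 3 genes and the 4 genes on chromosome 1 were named after their values were seen. A stricter threshold could not be tried because the lists hold no score, and motifs at peaks and the composite Sox2 and Oct4 motif were not searched. For the genes related to Arhgap26, the summary over the list is not reported here.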

Additional observations from a re-analysis of the deposited data

How the results depend on the processing

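Peak densities of the 3 genes together stayed within their counting intervals with the gene body alone, windows of 20 or 100 kb, touching peaks merged, nearest-gene assignment and, added after seeing the data, without the peaks within 1 kb of Spry4. Of 76 recomputed values over the 3 genes together or for the main pairs of libraries, 60 stayed within their interval or within 1.5 times their count and 16 did not. For single genes and other pairs the numbers were 132 and 16 of 148. Part of these values could not move, so the tally overstates stability. Leaving out peaks near Spry4 cannot change Pakap or Ppp1r9a, and the 0 of Ppp1r9a in Halo-Sox2 and Halo-Sox2M stays 0 in any smaller window. Merging touching peaks changed no density. With the gene body alone the Halo-Sox2D share was 2.17 per 1000 against 3.11, the clusters numbered 7 against 11, and no Halo-Sox2 peak had a Halo-Sox2M centre within 500 bp or the reverse (0% each). At the narrower criterion of 50 bp the endogenous Sox2 peaks with a Halo-Sox2 centre were 9.52% against 31.0%, those with a Halo-Sox2D centre 21.4% against 35.7% (in reverse 20.9% against 32.6%), and the shares between Halo-Sox2 and Halo-Sox2M were 0% in both directions, against 6.25 and 25.0%. By overlap of at least 1 bp endogenous Sox2 with Halo-Sox2 gave 2.38%, the reverse 6.25%, endogenous Sox2 with Halo-Sox2D 4.76%, the reverse 4.65%, Halo-Sox2 with Halo-Sox2D 6.25%, the reverse 2.33%, and Halo-Sox2 with Halo-Sox2M 0% either way. A narrower criterion can only lower these shares, and the gene body alone leaves fewer peaks. No paired analysis was possible because each group has 1 library. Depth is unknown, and the absence of a peak, as at Ppp1r9a in Halo-Sox2, does not show absence of binding.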
